A study of Mus musculus with 6 samples.

Results

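Macrophages take up different programmes during wound repair, and 10 genes that are commonly used to tell them apart were followed in injured mouse Achilles tendon. The genes were chosen by symbol as markers in common use, 6 as inflammatory (*Tnf*, *Il1b*, *Nos2*, *Cd86*, *Cd80* and *Ptgs2*) and 4 as reparative (*Arg1*, *Chil3*, *Retnla* and *Mrc1*), and all 10 were found among the 18099 genes of the expression table. Earlier results of these data were known when the choice was made. RNA sequencing was performed on the repair tissue of neonatal mice at 7 days after tendon transection. In the first group, 3 *LysM-Cre; Ampkα1 fl/fl* mice had both alleles of *Ampkα1* (gene symbol *Prkaa1*) floxed and carried Cre recombinase in the lysozyme M locus. The second group, 3 littermate controls that the study names *Ampkα1 fl/fl*, carried the floxed alleles without Cre. They are called the knockout and the control libraries from here on, 1 library per mouse, and the knockout is limited to the cells in which LysM-Cre is active. All 6 mice underwent the same transection, and the labels name no other treatment. The comparison asked whether loss of AMPKα1 in myeloid cells shifts the injured tendon toward the inflammatory or the reparative set.

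Inflammatory macrophages, induced by microbial products and interferon-γ, release cytokines such as TNF-α and IL-1β, make nitric oxide from arginine through the enzyme NOS2, make prostaglandins through PTGS2 (COX-2), and show the costimulatory proteins CD80 and CD86 to T cells. Reparative macrophages, induced by IL-4 and IL-13, use arginine through ARG1 instead, secrete the chitinase-like protein CHIL3 (YM1) and the resistin-like protein RETNLA (FIZZ1), and carry the mannose receptor MRC1 (CD206), which takes up glycoproteins. In tendon, as in other tissues, the inflammatory programme is usual early after injury and the reparative one later, and 1 macrophage can show genes of both.

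The tissue was whole repair tissue, so a level is a mean over every cell in it, and fewer cells of a type and less RNA per cell cannot be told apart. LysM-Cre acts in macrophages, monocytes and granulocytes, and its activity in tendon cells was not measured here. *Lyz2*, the locus that carries Cre, had 7378, 7778 and 7372 reads in the control libraries and 9, 15 and 8 in the knockout libraries, which matched the labels. It was thus 99.9% lower in CPM. The groups differed in *Lyz2* RNA and in Cre as well as in AMPKα1, and their effects cannot be told apart in this design. *Prkaa1* itself had 740, 688 and 690 reads against 626, 751 and 652, and the groups overlapped (log2 fold change −0.08 ± 0.09 SE, adjusted p = 0.744, edgeR). It is broadly expressed, and the counts do not separate the floxed part of the gene. The libraries held between 18076805 and 19479887 reads. The 10 tendon markers summed to between 92276 and 109486 CPM (reads scaled to the library total after TMM adjustment) in the 6 libraries, and the 19 macrophage markers to between 1408 and 1477 CPM in the control group and between 1099 and 1352 CPM in the knockout group. The 18 skeletal muscle markers summed to between 257 and 4211 CPM in the control group and between 1386 and 12235 CPM in the knockout group, highest in the third replicate of each group, and their part in the results was not tested except where a fit with their mean as a covariate is given.

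The 10 genes were far from evenly expressed. In TPM, a level scaled to transcript length and to the library, *Mrc1* had the highest mean, 89.7 ± 9.19, in the control group (mean ± SD, n = 3), followed by *Cd86* at 10.7 ± 0.524. *Retnla* (5.74 ± 4.15 TPM) and *Ptgs2* (4.6 ± 0.960 TPM) had the next means and overlapped each other, and *Retnla*, at 1.48 in control replicate 2, overlapped the genes with lower means too. *Il1b*, *Nos2*, *Cd80*, *Arg1* and *Tnf* had control means between 1.67 and 2.22 TPM, and their ranges overlapped, so these 5 have no order beyond their spread. *Chil3* had the lowest mean, 0.553 ± 0.527 TPM, and its range overlapped that of *Il1b*, which was at 0.43 in control replicate 3. In reads, *Mrc1* alone took 87.7% to 88.1% of all reads of the 10 genes in the control libraries and 79.0% to 84.2% in the knockout libraries, and the groups did not overlap. By contrast, 6 of the 10 genes had fewer than 40 reads in every control library (*Tnf*, *Il1b*, *Cd80*, *Arg1*, *Chil3* and *Retnla*), and only 4 had at least 50 reads in every library (*Nos2*, *Cd86*, *Ptgs2* and *Mrc1*). No gene of the 10 was at or below the floor of 3 reads in every library of a group.

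**Figure D1:**
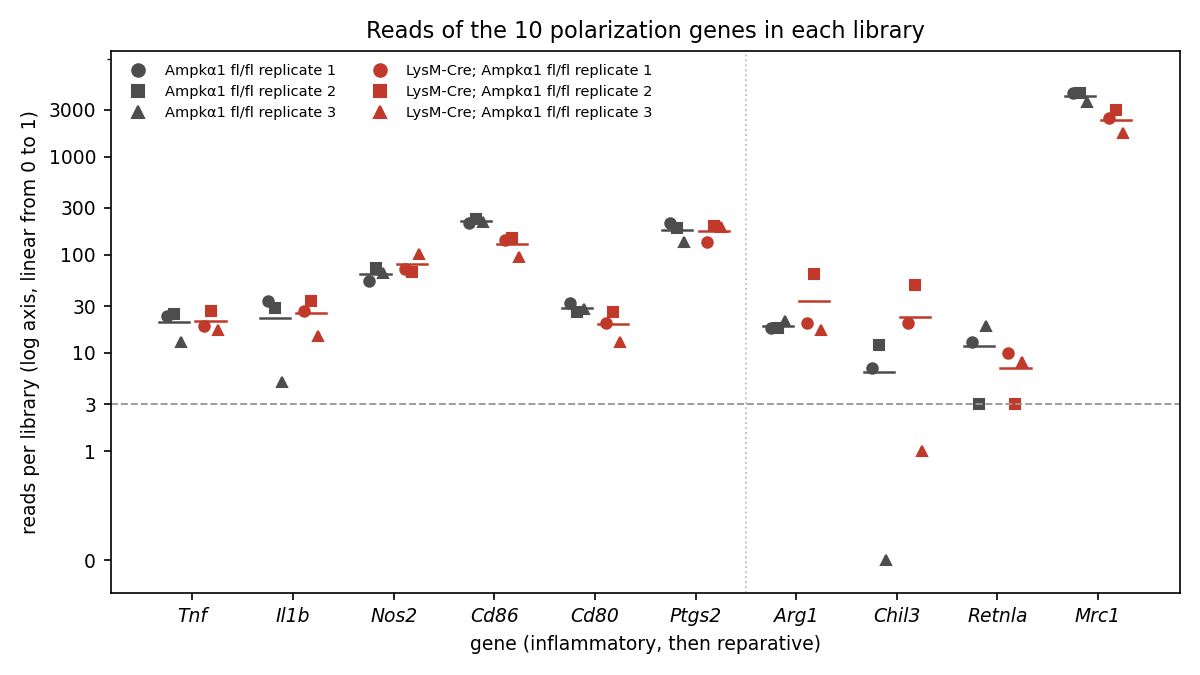
Reads per library (vertical axis, logarithmic above 1 read) for the 10 genes, with 1 point per library and a bar at the mean of each group of 3 libraries. The dashed line marks 3 reads. *Mrc1* had 1735 reads or more in all 6 libraries, *Cd86* and *Mrc1* separated the groups, and *Chil3* ranged from 0 to 49 reads.

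Of the 10 genes, 9 passed the filter on low counts and *Retnla* did not. In edgeR's quasi-likelihood test over 14261 genes, 0 of the 9 passed an adjusted p of 0.05, against 0.898% of all genes tested. An unadjusted p under 0.05 was reached by 2 of the 9 (*Cd86* and *Mrc1*, both lower in the knockout group), against 14.5% of all genes. The DESeq2 Wald test called the same 2 genes, at adjusted p = 0.00996 for *Cd86* and 0.000123 for *Mrc1*, and it called 4.77% of all genes. The groups did not overlap for 3 of the 9, *Cd86*, *Cd80* and *Mrc1*, all lower, where 11.4% of all genes were lower without overlap and 8.94% higher. The 3 genes that were lower without overlap came from both sets, 2 inflammatory and 1 reparative, and no gene of either set was higher without overlap.

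**Figure D2:**
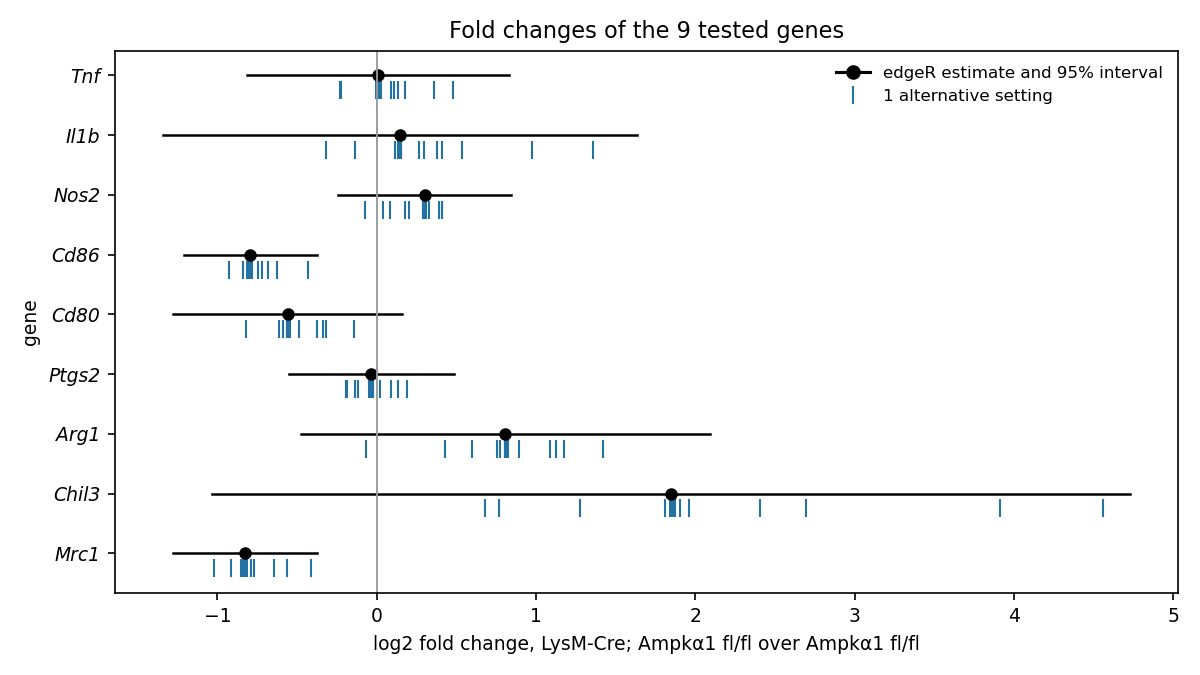
Log2 fold change of knockout (*LysM-Cre; Ampkα1 fl/fl*) over control (*Ampkα1 fl/fl*) libraries (horizontal axis) for the 9 genes tested, with the edgeR estimate and its 95% interval in black and 1 blue tick for each alternative setting. The intervals of *Cd86* and *Mrc1* lay wholly below 0 before adjustment over all genes, that of *Chil3* ran from −1.04 to 4.73, and the ticks of *Tnf*, *Il1b*, *Nos2*, *Ptgs2* and *Arg1* fell on both sides of 0.

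*Mrc1*, the mannose receptor of reparative and tissue-resident macrophages and also of lymphatic endothelium, was the most abundant of the 10 genes. It lies on chromosome 2 of GRCm38.p6, from 14229414 to 14332023, and all of its reads were assigned to 1 transcript. The control libraries held 4481, 4448 and 3596 reads, and the knockout libraries held 2460, 2961 and 1735. Every control library was above every knockout library. The mean level was 226 ± 24.9 CPM against 127 ± 33.2 CPM (SD, n = 3 in each group), 43.6% lower, with a log2 fold change of −0.83 ± 0.19 (SE) and a 95% interval of −1.28 to −0.37. The edgeR adjusted p was 0.115, and 0.0528 with replicate numbers as a block. An exact, two-sided permutation test came to p = 0.1, the smallest that 3 against 3 libraries allows. Counting error alone left a ratio of 0.564 with an interval of 0.548 to 0.581, far narrower than the interval of the fit, which holds the spread between libraries. The fold change stayed negative in all 16 alternatives, from −1.02 to −0.41, and passed the threshold in 2 of them, DESeq2 and the fit without knockout replicate 2 (adjusted p = 0.0486).

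The 250 bases before the RefSeq start of *Mrc1* are shown because this gene carried most of the reads and the largest difference in CPM. The stretch is chr2:14229164-14229413 on the plus strand, and capitals mark matches to 7 motifs. TATAAA, the TATA box, was searched on the given strand. The other 6 were searched on both strands, namely GAGGAA (the core bound by PU.1), TGANTCA (AP-1 type), TTGCNNAA (C/EBP type), TTC and GAA with 4 free bases between them (STAT6 type), GGG and TTCC with 3 free bases between them (κB type), and TTTC repeated after 2 free bases (interferon response type).
Mrc1: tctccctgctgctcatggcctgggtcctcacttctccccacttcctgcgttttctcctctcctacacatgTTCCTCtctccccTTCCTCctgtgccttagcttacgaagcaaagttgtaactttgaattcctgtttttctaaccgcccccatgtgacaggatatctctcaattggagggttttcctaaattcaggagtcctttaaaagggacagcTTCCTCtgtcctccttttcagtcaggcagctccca
The stretch held 3 matches to GAGGAA, all on the minus strand, whose first bases lie 180, 167 and 35 bases before the start, and no match to the other 6 motifs. GAGGAA was found in 23.3% of all 32851 promoters of this length. Promoters were at hand for 7 of the 10 genes and not for *Nos2*, *Cd86* or *Arg1*.

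*Cd86*, a costimulatory ligand of CD28 and CTLA-4 on T cells, was the inflammatory gene with the largest difference. The control libraries had 210, 233 and 217 reads, and the knockout libraries had 140, 150 and 96. The lowest control library was above the highest knockout library. Its level was 11.9 ± 0.810 CPM against 6.87 ± 1.51 CPM, 42.4% lower, with a log2 fold change of −0.79 ± 0.18 (SE) and a 95% interval of −1.21 to −0.38 (edgeR adjusted p = 0.107, and 0.110 with the block, exact permutation p = 0.1). The fold change was negative in all 16 alternatives, from −0.93 to −0.43, and passed the threshold in DESeq2 only. Between 88 and 227 reads of each library were assigned to transcript NM_019388, and 0 to 11.4 to each of the other two transcripts, so the lower values lay in the main transcript. The gene lies on chromosome 16, from 36568956 to 36666158.

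*Cd80*, the sister ligand on the same chromosome (from 38457430 to 38495958), had far fewer reads. The counts were 32, 26 and 28 in the control libraries and 20, 26 and 13 in the knockout libraries. In CPM the highest knockout value, 1.41, lay just under the lowest control value, 1.42, and both rest on 26 reads. The log2 fold change was −0.56 ± 0.30 (SE) with a 95% interval of −1.28 to 0.16 (edgeR adjusted p = 0.461, exact permutation p = 0.1). It was −0.34 without knockout replicate 3 and −0.14 with the macrophage marker mean as a covariate. The reads were spread over 4 transcripts, and *Cd80* overlaps 2 pseudogenes and 1 long noncoding gene in the annotation, which have no values in the table.

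*Mrc1*, *Cd86* and *Cd80* also varied together from library to library. Over the 6 libraries, log2 CPM of *Mrc1* and *Cd86* had a Pearson correlation of 0.971, *Mrc1* and *Cd80* of 0.930, and *Cd86* and *Cd80* of 0.902. These genes were read from the same libraries, which differ in genotype, depth and tissue makeup, and the part of each was not tested. The ratio of *Mrc1* to *Cd86* reads was 21.3, 19.1 and 16.6 in the control libraries and 17.6, 19.7 and 18.1 in the knockout libraries, and the groups overlapped. The ratio of this reparative to this inflammatory marker did not separate the groups. Among 11484 genes with a mean of at least 5 CPM, the pattern most like that of *Mrc1* was that of *Slc9a9* (r = 0.998), and the one most like that of *Cd86* was that of *Clec4a1* (r = 0.997), a C-type lectin of myeloid cells. For *Cd80* it was *Slit3* (r = 0.995).

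*Tnf* encodes the inflammatory cytokine TNF-α. It had 24, 25 and 13 reads in the control libraries and 19, 27 and 17 in the knockout libraries. The groups overlapped, at 1.12 ± 0.353 CPM against 1.12 ± 0.294 CPM. The log2 fold change was 0.01 ± 0.35 (SE), and its 95% interval of −0.82 to 0.83 does not exclude a moderate change in either direction (edgeR adjusted p = 0.996, exact permutation p = 1). It was −0.23 without control replicate 3 and −0.22 without knockout replicate 2. The table lists *Tnf* in 8 rows, 4 of which repeat the transcript NM_013693 with equal values in every library, between 3.25 and 6.75 reads per row, and the 4 rows sum to whole reads (4 rows of 6.25 give the 25 reads of control replicate 2). The reads of the gene were thus divided equally over the 4 rows, and 1 row holds only a part of them. The other 4 rows repeat NM_001278601 and are at 0. Such repeat rows exist for 745 genes of the table, and *Tnf* is the only member among them.

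The promoter of *Tnf* is shown as that of the cytokine at the head of the inflammatory set (chromosome 17, gene from 35199367 to 35202007). The stretch is chr17:35202008-35202257 on the minus strand, with the same motifs in capitals.
Tnf: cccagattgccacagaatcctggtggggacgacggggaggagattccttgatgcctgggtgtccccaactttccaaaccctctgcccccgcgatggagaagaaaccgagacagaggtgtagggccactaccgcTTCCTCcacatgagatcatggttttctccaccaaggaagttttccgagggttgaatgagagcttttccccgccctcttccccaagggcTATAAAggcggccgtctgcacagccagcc
It held TATAAA from 29 to 24 bases before the start, which 7.59% of all promoters hold, and 1 match to GAGGAA on the minus strand. TATAAA was also found 31 bases before the start of *Il1b* and 30 bases before that of *Retnla*, and not in the promoters of *Mrc1*, *Cd80*, *Ptgs2* or *Chil3*.

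*Il1b* encodes IL-1β, which is made as a precursor and cut by caspase 1. Its reads were 34, 29 and 5 in the control libraries and 27, 34 and 15 in the knockout libraries, with the third replicate lowest in both groups. The log2 fold change was 0.15 ± 0.63 (SE), with a 95% interval of −1.34 to 1.63 (edgeR adjusted p = 0.948, exact permutation p = 0.8). Over all alternatives it ran from −0.32 without control replicate 3 to 1.36 with the skeletal muscle marker mean as a covariate, and it was −0.14 without knockout replicate 2. *Il1b* overlaps the long noncoding gene *Il1bos*, which has no values in the table. *Tnf* and *Il1b* varied together (r = 0.916 over the 6 libraries).

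*Nos2* encodes the inducible nitric oxide synthase. It had 54, 73 and 66 reads in the control libraries and 72, 67 and 102 in the knockout libraries. The groups overlapped, and the highest value was that of knockout replicate 3. The level was 3.49 ± 0.577 CPM against 4.30 ± 1.06 CPM, with a log2 fold change of 0.30 ± 0.23 (SE) and a 95% interval of −0.24 to 0.85 (edgeR adjusted p = 0.614, exact permutation p = 0.4). Without knockout replicate 3 the log2 fold change was 0.08. *Nos2* ran opposite to *Cd80* across the libraries (r = −0.890).

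*Ptgs2*, which makes the precursor of prostaglandins, had 211, 188 and 134 reads in the control libraries and 135, 197 and 193 in the knockout libraries. The groups overlapped, with 1 low library each. The level was 9.59 ± 2.0 CPM against 9.38 ± 2.03 CPM (log2 fold change −0.03 ± 0.22 SE, 95% interval −0.55 to 0.49, edgeR adjusted p = 0.966, exact permutation p = 0.7). The interval was narrower than those of *Tnf*, *Il1b*, *Nos2* and *Cd80*, and the sign turned without control replicate 1 (0.09), control replicate 2 (0.02) or knockout replicate 1 (0.14).

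*Arg1* encodes the arginase that competes with NOS2 for arginine. Its reads were 18, 18 and 21 in the control libraries and 20, 64 and 17 in the knockout libraries. The control libraries lay close together, 2 of the knockout libraries lay near them, and replicate 2 of that group stood apart. The log2 fold change of 0.81 ± 0.54 (SE; 95% interval −0.48 to 2.09, edgeR adjusted p = 0.554, exact permutation p = 0.7) became −0.07 without that library. The ratio of *Nos2* to *Arg1* reads was 3.0, 4.06 and 3.14 in the control libraries and 3.6, 1.05 and 6.0 in the knockout libraries, which lay on both sides of the control range.

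*Chil3* encodes the chitinase-like protein YM1, made by reparative macrophages and also by neutrophils and their precursors. It had 7, 12 and 0 reads in the control libraries and 20, 49 and 1 in the knockout libraries, where replicate 2 was again highest and replicate 3 was at the floor. The log2 fold change was 1.85 ± 1.21 (SE; 95% interval −1.04 to 4.73, edgeR adjusted p = 0.545, and 0.145 with the block, exact permutation p = 0.4), and 0.68 without knockout replicate 2. Counting error alone would have given a ratio of 3.64 with an interval of 2.17 to 6.40, an interval that leaves out the spread between mice. The 14 neutrophil markers summed to 23.6, 55.2 and 11.8 CPM in the control libraries and 59.4, 53.6 and 13.2 CPM in the knockout libraries, lowest in the third replicate of each group, as *Chil3* was. Their part in the level of *Chil3* was not tested. None of the 10 neutrophil markers tested passed an adjusted p of 0.05 in edgeR, with 0 at an unadjusted p under 0.05 and 0 in DESeq2. Their estimates were above 0 for 9 and below 0 for 1, with a median log2 fold change of 0.70 against −0.002 for all genes.

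*Retnla*, a resistin-like protein induced by IL-4, was the member that did not pass the filter. Its reads were 13, 3 and 19 in the control libraries and 10, 3 and 8 in the knockout libraries, and the groups overlapped. Fitted without the filter, the log2 fold change was −0.75 ± 0.69 (SE, edgeR adjusted p = 0.70). Its transcript is short, so it came after only *Mrc1* and *Cd86* in mean TPM of the control libraries, although it had fewer reads than *Cd80* in every library. The promoter is shown because it held the only STAT6-type match among the 7 promoters, and STAT6 carries the IL-4 signal to the nucleus. The stretch is chr16:48842359-48842608 on the plus strand.
Retnla: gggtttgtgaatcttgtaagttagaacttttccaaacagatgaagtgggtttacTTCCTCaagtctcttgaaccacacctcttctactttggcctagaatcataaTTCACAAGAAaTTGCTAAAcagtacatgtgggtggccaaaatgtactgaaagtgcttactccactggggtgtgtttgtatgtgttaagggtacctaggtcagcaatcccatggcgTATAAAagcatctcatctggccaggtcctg
The STAT6-type motif matched from 145 to 136 bases before the start and TTGCNNAA from 134 to 127, without overlap. These motifs were found in 5.85% and 9.56% of all promoters.

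Whether the balance between the sets separated the groups depended on how the genes were combined. With each gene given equal weight it did not. The mean log2 CPM of the 6 inflammatory genes minus that of the 4 reparative genes was 0.15, 0.39 and 0.00 in the control libraries and −0.25, −0.42 and 0.55 in the knockout libraries. The knockout group thus held the lowest and the highest of the 6 values, and the mean difference was −0.22, within the pooled SD of 0.39. Summed reads of the inflammatory set were 565, 574 and 463 against 413, 501 and 436, which overlapped. Those of the reparative set were 4519, 4481 and 3636 against 2510, 3077 and 1761, lower without overlap, and most of them were reads of *Mrc1*. The ratio of inflammatory to reparative reads was thus 0.125, 0.128 and 0.127 in the control libraries and 0.165, 0.163 and 0.248 in the knockout libraries, higher without overlap, by 0.57 on the log2 scale. Without *Mrc1* the reparative reads were 38, 33 and 40 against 50, 116 and 26, which overlapped, and the difference of mean log2 CPM was −0.54, also with overlap. The ratio of summed reads and the value without *Mrc1* were chosen after the data were seen.

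Because the mean of the macrophage markers was lower without overlap, each gene was also set against them in the same library. The mean log2 CPM of the 19 macrophage markers was 5.75, 5.80 and 5.72 in the control libraries and 5.67, 5.63 and 5.37 in the knockout libraries, which did not overlap. Of the 19 markers, 0 passed an adjusted p of 0.05 in edgeR (9 at an unadjusted p under 0.05, 8 of them lower). DESeq2 called 1 higher and 2 lower, and the edgeR estimates were below 0 for 15 markers and above 0 for 4. *Csf1r*, the receptor of the macrophage growth factor, had the largest log2 fold change (−0.63, edgeR adjusted p = 0.0933), followed by *Adgre1* (−0.52, adjusted p = 0.0508), which encodes F4/80. Relative to the markers, *Mrc1* differed by −0.65 and *Cd86* by −0.60 on the log2 scale, and both stayed without overlap. *Nos2* differed by 0.48 and no longer overlapped, at −4.18, −3.77 and −3.82 in the control libraries and −3.72, −3.73 and −2.87 in the knockout libraries, of which 2 lay within 0.05 of the highest control library. *Cd80* differed by −0.36 and overlapped, and the other 6 genes overlapped as well. The marker mean itself differed by −0.20 between the groups, and subtracting it moves every gene up by that amount in the knockout group. The share of all genes without overlap on this scale was not computed. Each of *Mrc1*, *Cd86* and *Nos2* had an exact permutation p of 0.1, the smallest the design allows, and the 10 genes compared in this way were not adjusted for their number. With the marker mean as a covariate in edgeR, the log2 fold change was −0.41 for *Mrc1* and −0.43 for *Cd86*, and that of *Nos2* turned to −0.08. With the skeletal muscle marker mean as the covariate, *Mrc1* was at −0.56, *Cd86* at −0.68 and *Nos2* at 0.04. The same covariates moved other genes as well. *Il1b* went from 0.15 to 0.98 with the macrophage marker mean and to 1.36 with the muscle marker mean (edgeR adjusted p = 0.852 and 0.341). *Chil3* went from 1.85 to 4.56 and 3.91 (adjusted p = 0.454 and 0.177), and *Arg1* from 0.81 to 1.42 and 1.18 (adjusted p = 0.669 and 0.472). *Tnf* was at 0.36 and 0.48, and *Cd80* at −0.14 and −0.32. No member passed the threshold with either covariate.

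**Figure D3:**
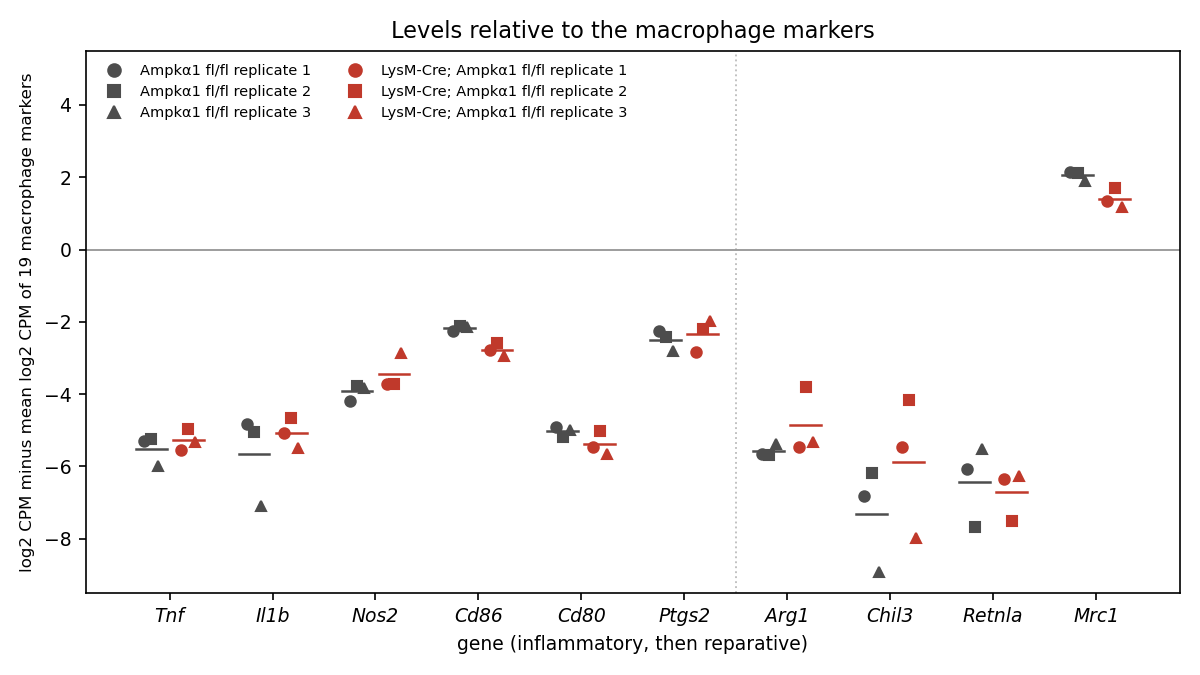
Log2 CPM of each gene minus the mean log2 CPM of 19 macrophage markers in the same library (vertical axis), with 1 point per library and a bar at the mean of each group of 3. *Mrc1* lay between 1.91 and 2.14 in the control libraries and between 1.19 and 1.70 in the knockout libraries, *Cd86* was also lower without overlap, and *Nos2* was higher by a narrow gap.

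Lymphatic endothelial and mast cell markers had lower sums in the knockout group without overlap, while the sums of dendritic cell markers overlapped. The 6 lymphatic endothelial markers summed to between 201 and 222 CPM in the control group and between 124 and 164 CPM in the knockout group, none passed an adjusted p of 0.05 in edgeR (4 at an unadjusted p under 0.05, all lower, and 4 in DESeq2), and *Lyve1*, which some resident macrophages also express, was at −0.82 (adjusted p = 0.0664, and 0.0490 with the block). The 7 mast cell markers summed to between 367 and 519 CPM against 156 to 247 CPM, with 1 called lower (*Cma1*, a chymase, log2 fold change −1.30, adjusted p = 0.0431), 3 with the block and 4 in DESeq2. The number of calls in that list was 0 without any 1 library other than knockout replicate 2. Of 7 erythroid markers tested, 6 fell, by edgeR's adjusted p, namely the globin genes *Hba-a1*, *Hba-a2*, *Hbb-bs* and *Hbb-bt*, whose near-identical copies can share reads, *Alas2* of haem synthesis and the anion exchanger *Slc4a1*, with log2 fold changes between −1.62 and −1.55, and 1 was called with the block, with 0 to 4 calls without 1 library (0 without control replicate 1 or 2). The 12 dendritic cell markers, of a cell type that also carries CD80 and CD86, summed to between 217 and 291 CPM in the control group and between 208 and 248 CPM in the knockout group, and 0 of 11 tested passed in edgeR (1 lower at an unadjusted p under 0.05, and 0 in DESeq2). Their mean log2 CPM was 2.91, 2.83 and 2.62 in the control libraries and 2.59, 2.49 and 2.19 in the knockout libraries, lower without overlap. Their part in the levels of *Mrc1* and *Cd86* was not tested.

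Around the inflammatory genes, the other inflammatory macrophage genes showed no call. Of 28 listed, 19 were tested and 0 passed in edgeR (6 at an unadjusted p under 0.05, 4 higher and 2 lower, and 2 higher in DESeq2), with a median log2 fold change of 0.07 against 0.00 for all genes. *Cxcl10*, an interferon-induced chemokine, had 80, 62 and 43 reads against 251, 123 and 234 (log2 fold change 1.70, edgeR adjusted p = 0.0757). The groups did not overlap, and it passed in DESeq2. *Saa3*, an acute-phase protein, had the second largest estimate (0.71, adjusted p = 0.806) with overlapping groups. *Il6* had only 4 to 9 reads in the control libraries and 5 to 12 in the knockout libraries and was not tested.

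No gene of the path from TNF-α to NF-κB was called, at read counts far above those of *Tnf*. These are RNA levels, and the activity of the path was not measured. All 24 genes listed were tested, 0 passed in edgeR, with 0 at an unadjusted p under 0.05 and 0 in DESeq2, and every log2 fold change lay between that of the receptor *Tnfrsf1a* (−0.10, adjusted p = 0.768) and that of *Ikbkg* (0.11, adjusted p = 0.507), a subunit of the kinase that releases NF-κB. Of 19 interleukin-1 and inflammasome genes, 18 were tested and 0 passed (2 higher at an unadjusted p under 0.05, and 0 in DESeq2). The largest estimates were those of 2 inhibitors, *Il18bp* (0.63, adjusted p = 0.140), which binds IL-18, and *Il1rn* (0.50, adjusted p = 0.464), the antagonist of the IL-1 receptor.

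Of 15 genes of arginine and nitric oxide metabolism, 14 were tested and 0 passed in edgeR (4 at an unadjusted p under 0.05, 3 higher, and 2 higher in DESeq2). *Nos1*, the neuronal and muscle synthase, had 21, 15 and 30 reads against 51, 35 and 54 (log2 fold change 1.06, adjusted p = 0.192), and *Ddah1*, which degrades inhibitors of the synthases, was at 0.46 (adjusted p = 0.0547). *Arg2*, the other arginase, had 1 to 3 reads in every library. Among the genes around *Ptgs2*, 22 genes of prostaglandin and leukotriene metabolism, 21 were tested and 1 passed, lower. *Hpgd*, the enzyme that inactivates prostaglandins, had 234, 224 and 255 reads against 111, 74 and 106, with a log2 fold change of −1.31 ± 0.17 (SE, edgeR adjusted p = 0.0287, and 0.0524 with the block). Its groups did not overlap, and the list's median was −0.35, with 19 of the 21 estimates below 0 and 2 above. The number of calls in the list was 0 without any 1 of the 3 control libraries, without knockout replicate 1 and without replicate 3.

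The partners of CD80 and CD86 on T cells were listed with related checkpoint genes. The list summed to between 230 and 257 CPM in the control group and between 254 and 279 CPM in the knockout group. Of 12 listed, 8 were tested and 0 passed in edgeR (2 at an unadjusted p under 0.05, 1 in each direction, and 1 in DESeq2). *Cd274*, which encodes PD-L1, had 37, 36 and 42 reads against 96, 56 and 109 (log2 fold change 1.16, adjusted p = 0.119), and *Cd40* had 55, 40 and 43 against 32, 30 and 30 (−0.60, adjusted p = 0.235). *Cd28* was at 0.02. *Ctla4*, the inhibitory receptor of both ligands, did not pass the filter and is named after its values were seen. It had 2, 1 and 1 reads in the control libraries, all at the floor, and 26, 6 and 15 in the knockout libraries, which is at least 5.11-fold higher when each control library is set to 3 reads.

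Around the reparative genes, 2 genes were called lower in edgeR. Of 24 other reparative macrophage genes, 20 were tested and 2 passed in edgeR, both lower, where 0.568% of all genes were called lower (5 lower in DESeq2). The list was written with earlier results of these data known, so its calls beside the share of all genes are no test. *Folr2*, a folate receptor of resident macrophages, had 661, 620 and 718 reads in the control libraries and 302, 207 and 248 in the knockout libraries, 36.1 ± 2.91 CPM against 13.4 ± 2.28 CPM (log2 fold change −1.42 ± 0.13 SE, edgeR adjusted p = 0.0134, and 0.0201 with the block). *Clec10a*, a lectin that binds galactose, had 462, 457 and 497 reads against 229, 195 and 152, 25.6 ± 1.49 CPM against 10.2 ± 1.88 CPM (−1.32 ± 0.14 SE, edgeR adjusted p = 0.0174, and 0.0525 with the block). Both differed more than *Mrc1* did, and their control libraries lay closer together. The number of calls in the list was 0 without control replicate 1 or 2, 1 without control replicate 3 or knockout replicate 1, and 0 with the macrophage marker mean as a covariate. Over the whole list the median log2 fold change was −0.12, with 12 estimates below 0 and 8 above. The groups did not overlap for 5 genes that were lower and 2 that were higher. The 5 were those called by DESeq2, which besides *Folr2* and *Clec10a* were *Mgl2* (−0.94), *Cd163* (−0.79) and *Stab1* (−0.57). The edgeR adjusted p of *Mgl2*, *Cd163* and *Stab1* was 0.117, 0.227 and 0.0662.

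IL-4 itself, the signal that induces the reparative set, was at 0 reads in 5 libraries and 1 read in the other, and *Il13* had 0 to 2 reads. Of 18 genes of IL-4 and IL-13 signalling, 15 were tested and 0 passed in edgeR (4 lower at an unadjusted p under 0.05, and 2 lower in DESeq2). The receptor chain *Il4ra* (0.04) and the transcription factor *Stat6* (0.04) overlapped between the groups. *Irf4*, a transcription factor downstream of IL-4, had 97, 74 and 118 reads against 43, 46 and 44 (log2 fold change −1.14, adjusted p = 0.0721), and *Pparg*, which is also an adipocyte factor, had 231, 285 and 264 against 176, 93 and 157 (−0.90, adjusted p = 0.142). Neither gene overlapped between the groups. The 8 adipocyte markers summed to between 221 and 409 CPM in the control group and between 79.0 and 276 CPM in the knockout group, lowest in the library in which *Pparg* was lowest.

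**Figure D4:**
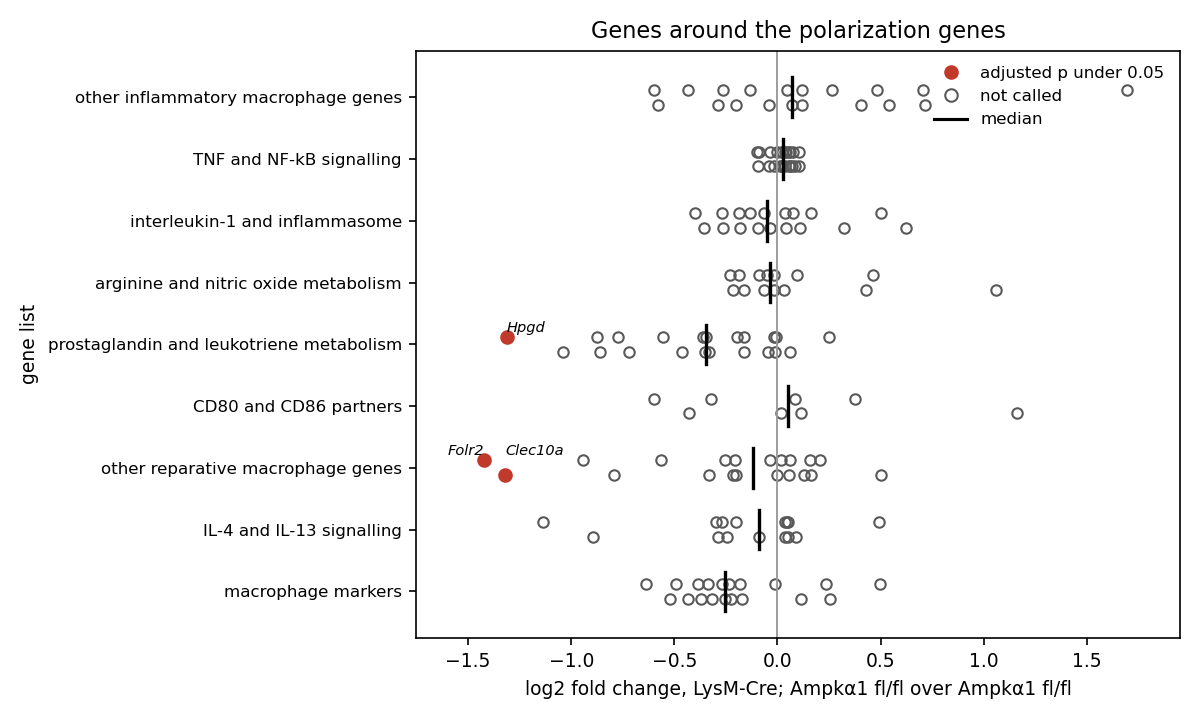
Log2 fold change (horizontal axis) of each gene tested in 9 lists around the polarization genes, with 1 circle per gene, filled where the edgeR adjusted p was under 0.05, and a bar at the median of the list. *Folr2* and *Clec10a* among the other reparative genes and *Hpgd* among the prostaglandin genes were called, all lower, and the TNF and NF-κB genes lay within −0.10 and 0.11.

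The genes whose patterns were most like those of the remaining members were *Smim3* for *Tnf* (r = 0.995), *Penk* for *Il1b* (0.986), *Ppp1r3c* for *Nos2* (0.990), *Iars* for *Ptgs2* (0.998), *Tmbim1* for *Arg1* (0.988) and *Nlgn2* for *Chil3* (0.985), over 6 libraries and up to 11485 genes. Values of this size were found for every member tested, including those that rest on few reads. All members were read from the same 6 libraries, which differ in genotype, depth and tissue makeup, and no p is given.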

How the data were processed

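RNA sequencing was performed on 6 tendon libraries, 3 of each genotype. The authors deposited, per library and for 65053 RefSeq transcripts, an estimated count that is not normalized and a TPM value, scaled to transcript length and library. The authors' normalized count is a signal, their estimated count rounded up and then scaled by 1 factor per library, and served here only as an alternative scaling. FPKM values, which the authors scaled to length and library, and group averages were also deposited and not used here. The submitters' processing notes name the build GRCm38.p6, while the aligner and counting tool are not given in the sources used here. Strandedness is not stated either, so reads of overlapping genes cannot be told apart.

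For each gene, the estimated counts of its transcripts were added up and the sum was rounded to a whole number. The test was edgeR's quasi-likelihood test (version 4.0.16 in R 4.3.3, filterByExpr, TMM factors, no term for the replicate number), with Benjamini-Hochberg adjustment over 14261 genes and a threshold of 0.05. Each replicate is 1 mouse, from the study's methods. DESeq2 1.42.0 and limma 3.58.1 on log2(TPM + 1) were alternatives, and the functions were tested on simulated data. Exact permutation tests were two-sided on log2(CPM + 0.5), and correlations used log2 CPM with a prior count of 2. Intervals on reads alone (95%, exact) cover counting error only. Symbols, positions and promoters came from RefSeq on GRCm38.p6, with 18049 of 18099 genes matched. The marker lists and the 10 genes were chosen with earlier results of these data known. Named were every gene called in a list, otherwise up to 2 genes of a list with the largest change (lists of cell type markers are mostly given by sums and counts alone), and for each member the gene with the most similar pattern. Other genes were named after their values were seen.

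The labels number the replicates 1 to 3 in both groups. Deviations from the group means correlated at 0.184, 0.118 and 0.310 for same-numbered libraries and between −0.550 and 0.501 for others, so the blocked value is printed where it changes a call. Other alternatives were RLE and upper-quartile scaling, other filters, leaving out each library, and marker means as covariates. One gene of the lists is not reported here.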

Additional observations from a re-analysis of the deposited data

How the results depend on the processing

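The number of members called was 0 in the main edgeR test and under every alternative except DESeq2 (2) and leaving out 1 library in turn (0 to 1). Over all genes, 128 calls became 680 with DESeq2, 47 with replicate numbers as a block, 5 with the macrophage marker mean as a covariate, 75 with the skeletal muscle marker mean, 68 with limma on TPM, and 8 to 276 without 1 library, the last without knockout replicate 2, and the cause was not tested beyond the smaller number of libraries. The replicate block changed no other call than those printed in the report. The fold changes of *Mrc1*, *Cd86*, *Cd80* and *Chil3* kept their sign throughout. Reversed signs were those of *Tnf* with upper-quartile scaling (log2 fold change −0.0028), *Nos2* with the macrophage marker mean (−0.075) and *Ptgs2* with the muscle marker mean (0.19). Without 1 library, the log2 fold change ran from −0.23 to 0.18 for *Tnf*, −0.32 to 0.54 for *Il1b*, −0.19 to 0.14 for *Ptgs2* and −0.068 to 1.12 for *Arg1*. The inflammatory minus reparative difference ran from −0.52 to −0.03 without 1 library, and turned to 0.57 as the log2 ratio of summed reads, a choice made after the data were seen. Without knockout replicate 2, 2 genes each of the other inflammatory list and of the CD80 and CD86 partners were called. Of the 6 members with fewer than 40 reads in every control library, the 5 tested had wider intervals than the other 4, and how much of that width comes from depth and how much from the spread between libraries was not tested.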
